A study of Homo sapiens with 6 samples.

Results

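The table of SNU668 transcript levels held 48 protein-coding genes whose symbol is ZNF followed by a digit, among 2128 genes in all, of which 1841 were protein-coding. They were taken from every chromosome by symbol and biotype alone, whatever their level, but only from a table whose rows nearly all differ between the groups, as described next. Another 3 rows with such a symbol had other biotypes and were not members. SNU668 is an established human gastric carcinoma line, labelled as gastric signet ring cells, and all 6 libraries come from it. The control group was 3 libraries titled shControl with the genotype label WT, so the title names a control hairpin and the genotype does not. The other group was 3 libraries titled shGPER with the genotype label GPER knockdown, in which a hairpin RNA lowers the messenger of GPER1, the G protein-coupled estrogen receptor. No hairpin sequence, treatment or time is given in the labels, nor whether either group is 1 clone, and nothing says that the libraries came from separate cultures. The p-values below therefore measure only the spread between these libraries, which may be technical. The series title places the comparison in a study of how this receptor acts on Hippo and YAP signalling.

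Levels are in TPM, a transcript count divided by transcript length and scaled so that every whole library has the same total. The listed genes summed to 46580 to 64240 TPM, or 4.66 to 6.42% of all TPM in a library, and the read depth behind them is unknown. GPER1 itself stood at 11.04, 11.00 and 10.41 TPM in the control libraries and at 1.83, 2.41 and 2.47 TPM in the knockdown libraries, with no overlap. The table was far from a random draw of genes: all knockdown libraries lay on one side of all control libraries for 95.3% of its rows, above them for 52.8% and below them for 42.6%. Of 11 gastric and epithelial markers looked up, 2 were in the table. E-cadherin (CDH1), the adhesion protein of epithelial cells, was at 0.44, 0.71 and 0.45 TPM in control and 0.11, 0.17 and 0.42 TPM in knockdown libraries, and the gastric mucosal peptide gene TFF1 was at 4.64, 4.44 and 6.22 TPM against 2.91, 2.24 and 0.26 TPM. The table thus gives little on the labelled cell type, and CDH1 was low in all 6 libraries. In bulk RNA, fewer cells that express a gene and less RNA per cell cannot be told apart.

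ZNF genes encode proteins with zinc fingers, short folds held by a zinc ion. Most carry the C2H2 kind in tandem, where successive fingers read successive bases of DNA. The largest class joins its fingers to a KRAB box, which recruits the corepressor TRIM28 and with it enzymes that methylate histones and silence chromatin, and many of these proteins bind transposable elements. Genes of that class stand in tandem arrays that arose by duplication, most of them on chromosome 19. ZNF proteins without a KRAB box are a mixed group of DNA-binding activators and repressors, RNA-binding proteins and adaptors.

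The members were 9.34% of the 514 protein-coding ZNF genes in GENCODE 29, and 28 of them (58.3%) lie on chromosome 19, as do 249 (48.4%) of the annotated genes. By the annotation terms in the table, or by a search of the translated coding sequence for the KRAB A-box, 29 members had a KRAB box and 19 had none found. The KRAB proteins had a median of 13 C2H2 fingers by pattern and the others a median of 5. Joining members less than 500 kb apart left 1 long run of 15, all KRAB genes, between ZNF616 and ZNF331 at chr19:52113091-53580269 (GRCh38). Of 31 annotated protein-coding ZNF genes in this interval, the other 16 were not analysed here.

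Start-site sequence is shown for the run because 7 of its genes resemble each other there and because most genes of the run rose. Whether this sequence has a part in the change was not tested. RefSeq (GRCh38.p14) gave a window of 250 bases before and 50 bases after the start for 39 of the 48 members, of which 13 were in the run. In 7 of these 13, namely ZNF468, ZNF525, ZNF701, ZNF761, ZNF765, ZNF813 and ZNF845, the windows were 75.7 to 86.0% identical over 300 bases in all 21 pairs. The other 720 pairs of member windows had a median identity of 44.7% and at most 66.3%. The printed stretch runs 5′ to 3′ on the gene's strand from 250 bases before the start to 30 bases after it. Capitals mark ACCNGGAAG, a motif chosen after the alike windows had been read, which holds the GGAA core that ETS factors bind. The genes shown are the one with the largest rise (ZNF468, chr19:52857590-52857869, minus strand), a pair of genes with 86.0% identical windows that both rose (ZNF765, chr19:53394899-53395178, and ZNF845, chr19:53333499-53333778, both plus strand), and the one that did not pass the test (ZNF813, chr19:53467483-53467762, plus strand).
ZNF468: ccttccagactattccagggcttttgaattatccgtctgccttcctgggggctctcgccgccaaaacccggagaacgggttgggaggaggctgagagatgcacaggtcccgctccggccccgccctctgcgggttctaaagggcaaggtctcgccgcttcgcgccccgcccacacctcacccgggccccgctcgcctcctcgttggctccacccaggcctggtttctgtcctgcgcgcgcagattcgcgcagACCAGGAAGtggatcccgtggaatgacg
ZNF765: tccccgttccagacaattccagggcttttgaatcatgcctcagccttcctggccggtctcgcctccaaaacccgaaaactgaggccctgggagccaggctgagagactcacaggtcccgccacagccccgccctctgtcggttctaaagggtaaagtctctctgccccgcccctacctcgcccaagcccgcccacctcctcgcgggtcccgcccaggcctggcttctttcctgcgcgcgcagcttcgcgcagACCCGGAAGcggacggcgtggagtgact
ZNF845: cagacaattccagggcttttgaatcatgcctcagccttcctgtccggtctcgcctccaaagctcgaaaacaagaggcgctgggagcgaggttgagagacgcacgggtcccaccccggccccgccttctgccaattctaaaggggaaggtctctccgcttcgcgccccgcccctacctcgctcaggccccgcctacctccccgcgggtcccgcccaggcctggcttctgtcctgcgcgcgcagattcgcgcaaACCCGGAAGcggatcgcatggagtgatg
ZNF813: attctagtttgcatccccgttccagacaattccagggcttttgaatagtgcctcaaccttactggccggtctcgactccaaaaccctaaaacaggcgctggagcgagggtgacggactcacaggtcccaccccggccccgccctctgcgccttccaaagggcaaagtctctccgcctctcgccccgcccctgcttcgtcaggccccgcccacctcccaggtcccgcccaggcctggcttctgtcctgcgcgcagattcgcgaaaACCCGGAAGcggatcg
The start used for ZNF468 is base 52857619, and 5 of its 8 GENCODE transcripts start inside the window. The same window also holds the start of 2 transcripts of ZNF28, at base 52857600 on the same strand, so it is a start region of both genes, and the ZNF468 gene model reaches further upstream. The window of ZNF761 likewise holds a start of the pseudogene TPM3P9, and in the other 5 no transcript of another gene starts on that strand. The motif began at base 3 of the transcript in ZNF468, ZNF765 and ZNF845, and also in ZNF701 and ZNF761, at base 13 in ZNF525 and at base 15 in ZNF813. Searched on both strands of whole windows, it was found in all 7 alike windows, in 9 of the 13 windows of the run and in 10 (25.6%) of the 39 member windows. It was found in 2.73% of the windows of 27305 symbols. Because the motif was chosen from the 7 alike windows, its presence there was fixed in advance. Those windows, which are near copies of each other, are most of the 10, so the shares are no test of enrichment. The shorter word CCGGAAG, which the motif contains when its N is C, was in 4 of the 7 alike windows, in 15 of the 39 member windows and in 10.7% of all windows. GGGCGG, the core of the GC box bound by SP factors, was in 33 of 39 member windows and 44.6% of all. CATTCC, the core word bound by TEAD factors, the DNA-binding partners of YAP, was in 9 of 39 member windows, 1 of the 7 alike windows and 14.0% of all. TGACGTCA, the full site bound by CREB factors, was in 2 of 39 member windows and 1.98% of all. The windows of all symbols were not matched to those of the members in biotype or base composition, and no enrichment of any word was tested. ZNF813 shares the window and the motif with the 6 others and did not pass the test described next.

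Among the tested members, 17 of 18 with a KRAB box rose and none fell, while 8 of the 15 others rose and 7 fell. With limma on log2(TPM + 1), over 1651 genes that reached 1 TPM in at least 3 libraries and with Benjamini-Hochberg adjusted p under 0.05, 33 members were tested. Of these, 25 rose, 7 fell and 1 did not pass, against a background in which 47.8% of tested genes rose and 50.6% fell. Passing the test is no distinction here, since 98.4% of tested genes passed, and only the direction varied. The median log2 fold change of the tested members was 1.04, against -0.49 over all tested genes. Of the 25 that rose, 24 at least doubled in mean TPM, with ratios from 1.95 to 14.0 and a median of 2.85. The filter fixed the direction of 3 of the 25, among them ZNF469 with the ratio of 14.0, and the highest ratio among the other 22 was 7.98, in ZNF468. By class, it fixed the direction of 1 of the 17 KRAB genes that rose, 2 of the 8 others that rose and 1 of the 7 that fell. Such genes passed the filter through 1 group only. The 7 that fell had ratios from 0.252 to 0.647. The 15 members below the filter were all higher in every knockdown library than in every control library, as were 71.7% of all rows below it.

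**Figure D1:**
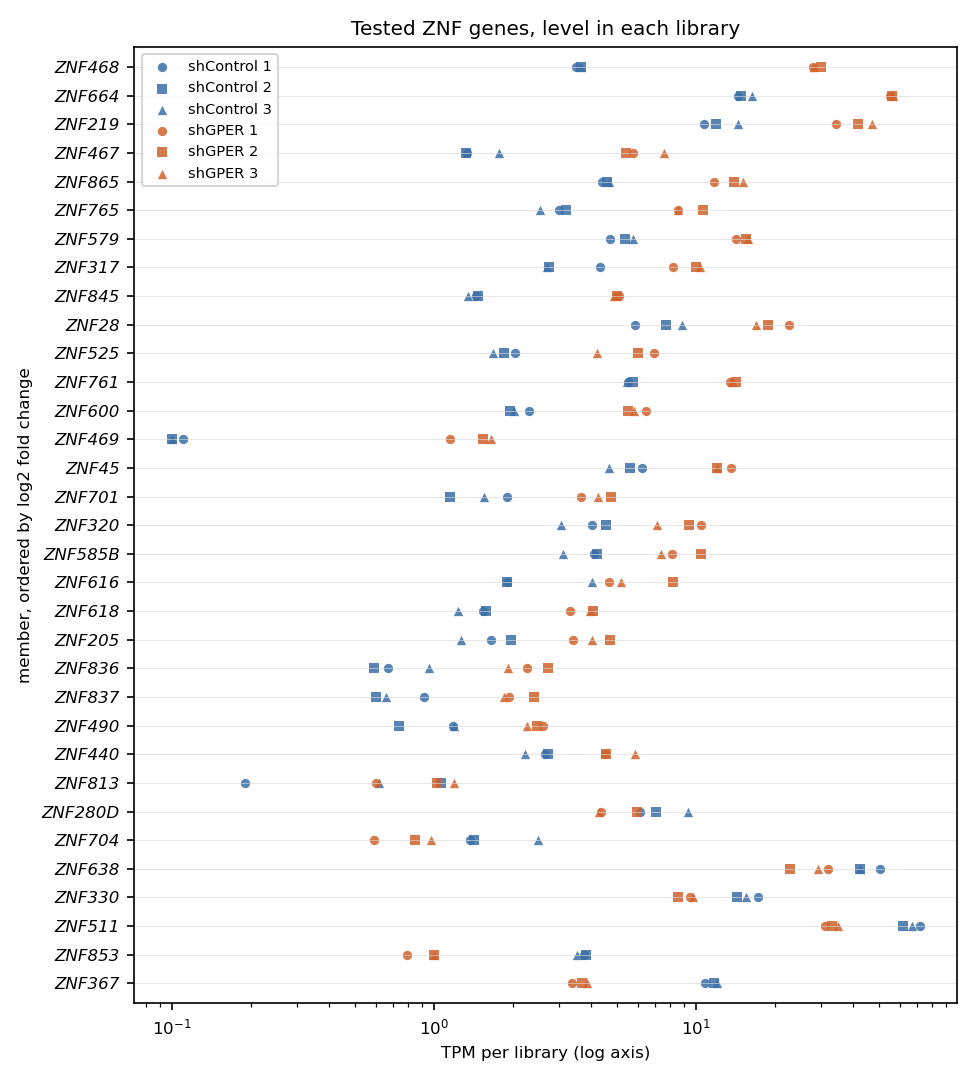
TPM in each of the 6 libraries (log axis) for the 33 tested ZNF genes, ordered by log2 fold change, with blue control and orange knockdown libraries and one marker shape for each library number. The 25 genes at the top have all orange points to the right of all blue ones, ZNF813 overlaps, and the 6 genes at the bottom and ZNF280D have all orange points to the left, by little in ZNF280D.

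Of the 29 KRAB genes, 18 were tested, 17 rose, none fell and 1 did not pass, whereas of the 19 genes with no KRAB box found, 15 were tested, 8 rose and 7 fell. In 28 of the 29 KRAB genes every knockdown library lay above every control library, as in 52.8% of all rows of the table and in 71.7% of those below the filter, where 11 of the 29 are. Their median log2 fold change was 1.06, with a range of 0.28 to 2.69, and that of the other class was 0.83, with a range of -1.44 to 1.81. Chromosome 19 divided the members in the same way: 19 of 20 tested members there rose and none fell, and on other chromosomes 6 of 13 rose and 7 fell. These counts include 2 tested members on chromosome 19 and 2 on other chromosomes whose direction the filter fixed. Over all tested genes 47.8% rose and 50.6% fell. The counts off chromosome 19 and those with no KRAB box found lie near these shares. No share was taken over the other genes of chromosome 19. The split by class and the split by chromosome overlap, because most KRAB members lie on chromosome 19. These are counts within a preselected table, and no test of the difference between classes was run.

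**Figure D2:**
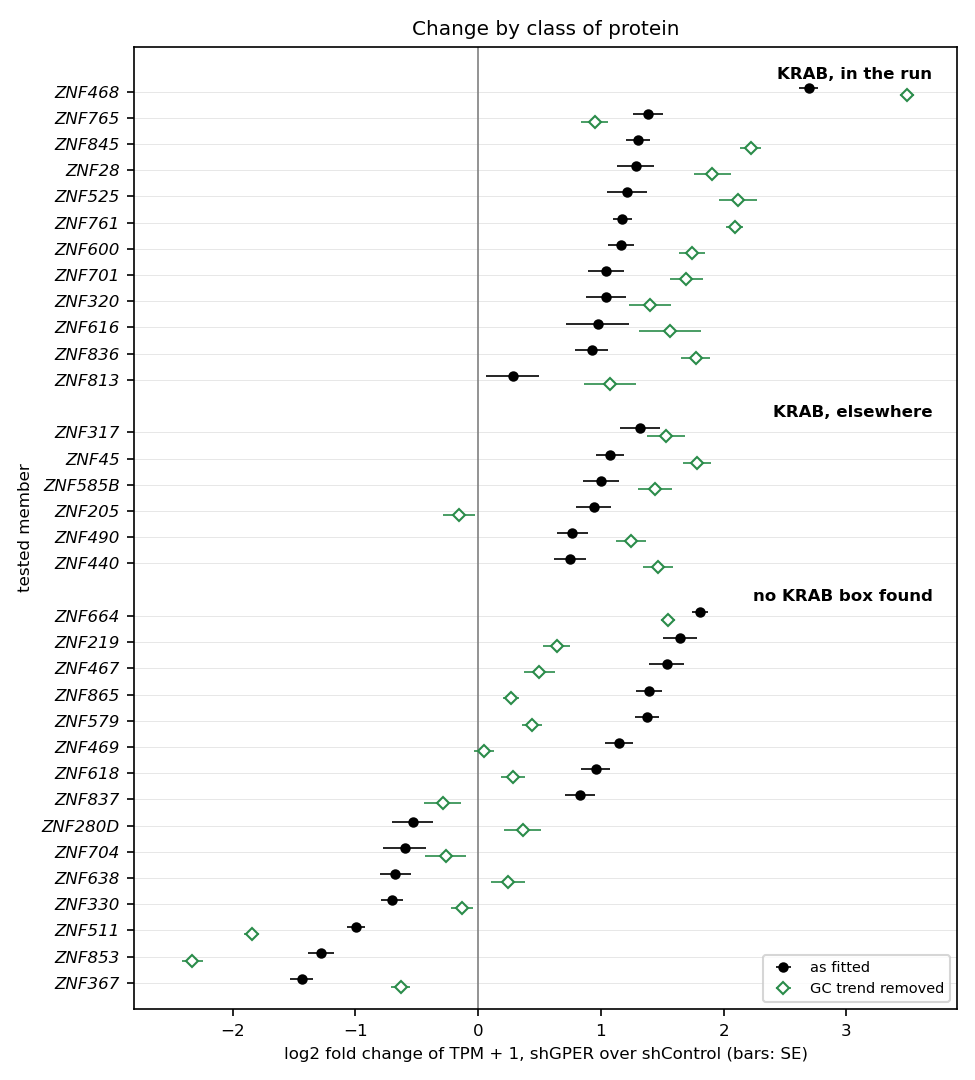
Log2 fold change of TPM + 1, knockdown over control, with its standard error (SE), for the 33 tested ZNF genes by class of protein and place, as fitted (black circles) and after removal of the trend with GC content (green diamonds). All KRAB genes lie right of 0 as fitted, from 0.28 to 2.69, while genes with no KRAB box found lie on both sides, from -1.44 to 1.81.

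The largest rise on the log2(TPM + 1) scale was in ZNF468, a KRAB gene with 10 fingers at chr19:52838008-52890375 (minus strand). Its level was 3.50, 3.66 and 3.65 TPM in the control libraries and 27.99, 30.16 and 28.16 TPM in the knockdown libraries. The groups lay far apart and the libraries within each were close, and the log2 fold change by limma was 2.69 ± 0.08 (SE, n = 3 against 3, adjusted p = 9.98e-08). Its neighbours on the same strand rose less. ZNF28, at chr19:52797409-52857600, went from 5.86, 7.70 and 8.86 to 22.63, 18.94 and 17.04 TPM. ZNF320, at chr19:52863790-52897693, went from 4.01, 4.53 and 3.05 to 10.50, 9.44 and 7.14 TPM. In both genes the lowest knockdown library was above the highest control library, by more in ZNF28 than in ZNF320, with log2 fold changes of 1.28 ± 0.15 and 1.04 ± 0.16 (limma SE, n = 3 against 3). The 3 genes are not separate measurements. ZNF468 overlaps both others on 1 strand, and 54.1% of the 31-base words in its transcripts also occur in those of ZNF320, so how reads were divided between them depends on the counting.

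A second group of neighbours in the run lies on the plus strand, from ZNF845 to ZNF813. ZNF845, with 26 fingers the most of any member, was at 1.45, 1.48 and 1.35 TPM in control and 5.09, 5.01 and 4.87 TPM in knockdown libraries. ZNF525 followed with 2.05, 1.86 and 1.68 TPM against 6.93, 6.04 and 4.19 TPM. Neither gene overlapped between groups, and the knockdown libraries of ZNF845 lay closer together than those of ZNF525. ZNF765 rose from 3.00, 3.21 and 2.55 TPM to 8.59, 10.66 and 8.53 TPM, and ZNF761 from 5.53, 5.75 and 5.46 TPM to 13.54, 14.20 and 13.74 TPM. The limma log2 fold changes of these 4 genes lay between 1.17 (ZNF761) and 1.39 (ZNF765), with SE from 0.08 to 0.16. ZNF813, the next member along from ZNF761, was the exception among the tested members. It stood at 0.19, 1.07 and 0.62 TPM in control and 0.60, 1.03 and 1.20 TPM in knockdown libraries, so the groups overlapped, and the log2 fold change of 0.28 ± 0.21 (SE, n = 3 against 3) had an adjusted p of 0.226 by limma. Without control replicate 2, its highest control library, the log2 fold change was 0.47 and the adjusted p by limma was 0.0494. Leaving out any other single library gave log2 fold changes from 0.07 to 0.41 and adjusted p from 0.118 to 0.709 by limma.

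Most other genes of the run were at a few TPM and rose by similar amounts. ZNF600 went from 2.31, 1.95 and 2.02 to 6.45, 5.52 and 5.82 TPM, ZNF701 from 1.91, 1.15 and 1.56 to 3.65, 4.75 and 4.22 TPM, and ZNF836 from 0.67, 0.59 and 0.96 to 2.28, 2.72 and 1.92 TPM. All 3 were without overlap, although ZNF836 passed the filter only through the knockdown group, which fixed its direction. ZNF616, at the start of the run, was the most uneven of the genes that rose there, at 1.91, 1.90 and 4.03 TPM in control and 4.67, 8.17 and 5.20 TPM in knockdown libraries. The rest of the run, ZNF331, ZNF347 and ZNF578, were below the filter. Summed over its 15 genes, the run held 34.8 ± 1.72 TPM (SD, n = 3) in control and 112 ± 7.48 TPM in knockdown libraries, a ratio of 3.23. Of these 15, 13 share over 20% of their 31-base words with another gene or overlap one on the same strand, among them all 12 that were tested. For several of them, such as ZNF701, ZNF600 and ZNF813, the gene that shares most words is not a member, so both the sum and its division between the genes depend on the counting.

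KRAB genes outside the run rose without exception among the 6 tested as first fitted, where 47.8% of all tested genes rose. ZNF317, at chr19:9140380-9163424, was at 4.31, 2.76 and 2.70 TPM in control and 8.20, 9.99 and 10.36 TPM in knockdown libraries, a log2 fold change of 1.32 ± 0.16 (limma SE, n = 3 against 3). ZNF45, at chr19:43912629-43935278, was at 6.23, 5.63 and 4.66 TPM against 13.69, 12.09 and 12.10 TPM. Neither gene overlaps another on its own strand or shares more than 1.6% of its 31-base words with another, and in both the groups were well apart. ZNF585B (4.08, 4.19 and 3.12 against 8.13, 10.43 and 7.36 TPM), ZNF440 (2.67, 2.74 and 2.24 against 4.50, 4.56 and 5.89 TPM) and ZNF490 (1.18, 0.74 and 1.20 against 2.61, 2.48 and 2.27 TPM) also showed no overlap. ZNF490 shares 62.4% of its words with other genes, mainly a readthrough gene annotated over it. ZNF585B shares 31.9% of its words and overlaps AC012309.1 on its strand, and ZNF440 shares 24.5%. The levels of these 3 genes therefore depend on the counting. The only tested KRAB gene off chromosome 19 was ZNF205, at chr16:3112560-3120517, with 1.65, 1.97 and 1.27 TPM in control and 3.41, 4.71 and 4.02 TPM in knockdown libraries. With the trend with GC content removed, as described below, its log2 fold change was -0.16 and did not pass. Over all 29 KRAB genes the sum was 54.2 ± 0.878 TPM in control and 159.9 ± 8.18 TPM in knockdown libraries (SD, n = 3 each), a ratio of 2.95.

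Of 22 genes for proteins that KRAB zinc finger proteins recruit or act with, 1 was in the table. This was HDAC1, a histone deacetylase of the NuRD and related complexes, at 32.00, 31.97 and 35.98 TPM in control and 69.62, 70.93 and 70.56 TPM in knockdown libraries. It rose with a log2 fold change of 1.06 by limma (adjusted p = 1.18e-06, n = 3 against 3). TRIM28, SETDB1 and the others on that list were not analysed here.

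Among genes with no KRAB box found, the highest rise on the log2(TPM + 1) scale was in ZNF664, a short protein with 9 fingers, at chr12:123971845-124015439. It overlaps RFLNA and AC068790.8 on its strand and shares 6.78% of its 31-base words with other genes. It was at 14.46, 14.89 and 16.43 TPM in control and 54.90, 56.03 and 56.40 TPM in knockdown libraries, a log2 fold change of 1.81 ± 0.07 by limma (SE, n = 3 against 3, adjusted p = 2.10e-07). With 0.1 TPM added in place of 1, ZNF469 (2.92) and ZNF467 (2.00) stand above it (1.86), so this order depends on the pseudocount. ZNF219, a DNA-binding partner of the cartilage factor SOX9, at chr14:21090046-21104722, was at 10.77, 11.96 and 14.52 TPM against 34.24, 41.62 and 47.13 TPM. These were the most abundant members that rose, and in each the lowest knockdown library was more than double the highest control library. ZNF467, known for steering marrow precursors between fat and bone, went from 1.34, 1.33 and 1.77 to 5.76, 5.40 and 7.55 TPM, with no overlap.

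ZNF579 (chr19:55576770-55580845) and ZNF865 (chr19:55605405-55617269) lie near each other on chromosome 19, and both rose. ZNF579 was at 4.70, 5.35 and 5.74 TPM in control and 14.21, 15.56 and 15.89 TPM in knockdown libraries. ZNF865 was at 4.40, 4.59 and 4.67 TPM against 11.73, 13.98 and 15.16 TPM. Their log2 fold changes were 1.38 ± 0.10 and 1.39 ± 0.11 by limma (SE, n = 3 against 3), a difference smaller than either SE. ZNF618, a partner of UHRF2 at hydroxymethylated DNA, was lower in level, at 1.54, 1.59 and 1.24 TPM against 3.31, 4.06 and 3.95 TPM. In ZNF469, the gene mutated in brittle cornea syndrome, and ZNF837 all control libraries were under 1 TPM, so the filter fixed their direction. ZNF469 was at 0.11, 0.10 and 0.10 TPM in control and 1.15, 1.54 and 1.66 TPM in knockdown libraries, the largest ratio of means (14.0) of any tested member. ZNF837 was at 0.92, 0.60 and 0.66 TPM against 1.93, 2.42 and 1.86 TPM.

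All 7 genes that fell lacked a KRAB box by the search, and all 7 lie off chromosome 19. They include the 2 most abundant members in control libraries. ZNF511, a small protein with 3 fingers, at chr10:133308475-133313162, was at 71.52, 61.70 and 67.05 TPM in control and 31.04, 33.20 and 34.82 TPM in knockdown libraries. ZNF638, a large nuclear protein that binds DNA and RNA, at chr2:71276561-71435069, was at 50.71, 42.29 and 42.40 TPM against 32.03, 22.94 and 29.17 TPM. In both, every knockdown library was lower, with log2 fold changes of -0.99 ± 0.07 and -0.68 ± 0.13 by limma (SE, n = 3 against 3). ZNF511 has an annotated readthrough with its neighbour PRAP1, with which it shares 17.5% of its words. ZNF638 overlaps AC007878.1 on its strand but shares only 0.03% of its words with other genes.

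The largest falls were in ZNF367 and ZNF853. ZNF367, at chr9:96385941-96418329, stood at 10.89, 11.75 and 12.05 TPM in control and 3.37, 3.68 and 3.86 TPM in knockdown libraries, a log2 fold change of -1.44 ± 0.09 by limma (SE, n = 3 against 3, adjusted p = 1.66e-06). ZNF853, at chr7:6615617-6624290, stood at 3.75, 3.80 and 3.51 TPM against 0.79, 1.00 and 1.00 TPM, a log2 fold change of -1.28 ± 0.10. Both were tight within groups and wide apart between them. ZNF330, a nucleolar zinc-binding protein in which the C2H2 pattern was not found, went from 17.23, 14.41 and 15.55 to 9.52, 8.56 and 9.75 TPM. ZNF280D, at chr15:56630181-56734086, fell least, from 6.12, 7.03 and 9.37 TPM to 4.35, 5.95 and 4.28 TPM, so that its highest knockdown library was just below its lowest control library (adjusted p = 0.0140 by limma). It also shares 26.4% of its words with an overlapping gene, AC090517.4. ZNF704 went from 1.38, 1.43 and 2.50 to 0.59, 0.85 and 0.98 TPM, with its direction fixed by the filter.

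In sum, the 48 genes held 248 ± 8.64 TPM in control and 382 ± 8.84 TPM in knockdown libraries (SD, n = 3 each). The sum was 254.7, 238.3 and 251.4 TPM against 372.2, 386.9 and 388.0 TPM, a ratio of 1.54 with no overlap. Absence of overlap was common, being found in 95.3% of all rows. The sum over all listed genes also differed between libraries, from 46580 to 64240 TPM, and no ratio between groups is given for it. The 7 genes that fell went from 152 ± 9.60 to 80.6 ± 3.96 TPM, and the 25 that rose from 92.8 ± 2.51 to 291 ± 10.3 TPM. Genes with no KRAB box found, where rises and falls offset each other, summed to 194 ± 9.20 and 222.5 ± 12.4 TPM, a ratio of 1.15.

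The 15 genes below the filter have TPM between 0 and 1.85, and 11 of them carry a KRAB box. In all 15 the lowest knockdown library was above the highest control library, as in 71.7% of the rows of the table that were not tested. The highest were ZNF385C, at 0.28, 0.37 and 0.33 TPM in control and 1.85, 0.83 and 1.53 TPM in knockdown libraries, and ZNF114, at 0.32, 0.48 and 0.62 TPM against 0.93, 1.67 and 0.99 TPM. ZNF331, an imprinted KRAB gene at the end of the run, was at 0.36, 0.30 and 0.33 TPM against 0.96, 1.09 and 1.31 TPM. These 3 genes reached about 1 TPM in the knockdown libraries and stayed under it in the controls. ZNF334 was at 0.30, 0.45 and 0.43 TPM against 0.84, 1.11 and 1.45 TPM, and ZNF860 at 0.05, 0.19 and 0.28 TPM against 0.77, 1.14 and 0.88 TPM. ZNF233, the 1 gene of chromosome 19 in this group with no KRAB box found, was at 0.12, 0.13 and 0.15 TPM against 1.08, 0.38 and 0.61 TPM. The others, ZNF215, ZNF254, ZNF347, ZNF578, ZNF583, ZNF630, ZNF703, ZNF709 and ZNF843, were below 1 TPM in every library. ZNF347 was at 0.07, 0.05 and 0.02 TPM against 0.74, 0.24 and 0.40 TPM, and ZNF703, a gene amplified in luminal breast cancer, was listed at 0, 0.02 and 0.03 TPM against 0.11, 0.22 and 0.20 TPM. With no read counts, the counting error of values this low is not known.

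**Figure D3:**
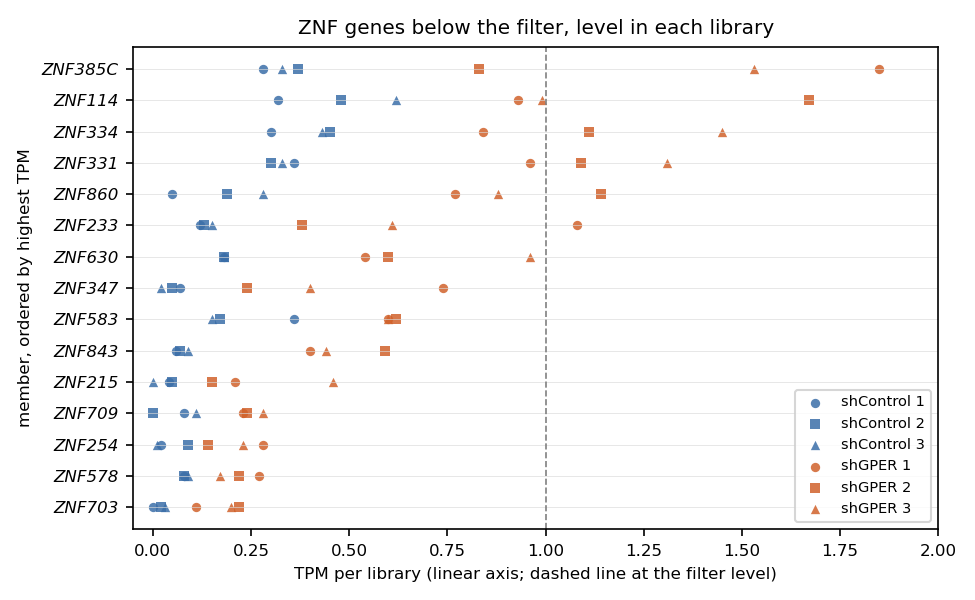
TPM in each of the 6 libraries (linear axis) for the 15 ZNF genes below the filter, ordered by highest TPM, with blue control and orange knockdown libraries and a dashed line at the filter level of 1 TPM. All orange points lie right of all blue points of the same gene, and no blue point reaches the dashed line.

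Base composition moved with the direction of change across the table, and most tested KRAB members rose at a GC content where most genes fell. Tested genes that rose had a median GC content of 59.6% and those that fell 44.3%, and 76.3% of tested genes with at least 50% GC rose, against 14.9% of those under 50%. The KRAB members have a median of 46.2% GC, on the side where most genes fell. Of 15 tested KRAB members under 50% GC, 14 rose and none fell, with the direction of 1 of them (ZNF836) fixed by the filter. The 5 tested members under 50% GC with no KRAB box found all fell, as most genes of that composition did. Those 5 were ZNF280D, ZNF330, ZNF367, ZNF638 and ZNF704, of which ZNF704 had its direction fixed by the filter. By the same measure of shared words or overlap, 3 of the 5 are uncertain in counting. The part of GC content in the changes was not tested beyond a fit in which the trend with GC was removed from the log2 ratios.

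**Figure D4:**
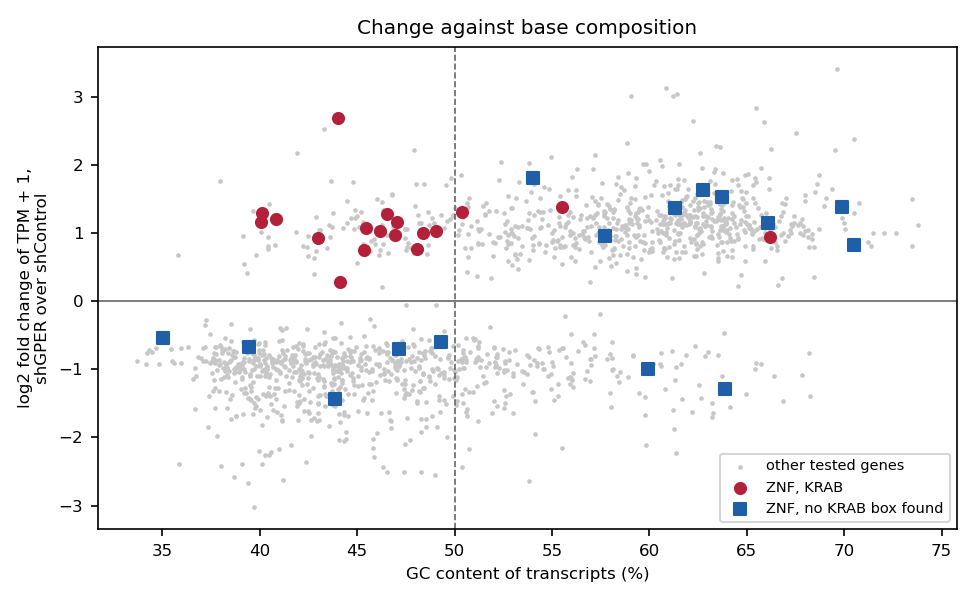
Log2 fold change of TPM + 1 against the GC content of transcripts for all tested genes with a GC value, with other genes in grey, KRAB members as red circles and members with no KRAB box found as blue squares; the dashed line is at 50% GC. Left of the line 14 of 15 red circles passed the test as higher, among mostly negative grey points, and all 5 blue squares there are below 0.

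With that trend removed, 31.5% of genes rose and 31.1% fell by limma at the same threshold. Of the 32 members called as first fitted, 25 kept their call and direction, 22 of them higher and 3 lower. The KRAB genes moved up, in 16 of 18 to a larger log2 fold change than before, with a median of 1.63 in place of 1.06. The median log2 fold change over all tested genes also moved up, from -0.49 to 0.007. The removal shifts each gene by an amount set by its GC content alone, so these moves are no result about the KRAB class. In the run 11 of 12 were larger and all 12 passed the test as higher, with ZNF813 at 1.07 (adjusted p = 0.00304 by limma). ZNF468 reached 3.49. ZNF205, with 66.2% GC, was the KRAB gene that did not pass, as its log2 fold change turned from 0.94 to -0.16. Genes with no KRAB box found moved towards 0 or across it, apart from ZNF511 and ZNF853, which moved further down. ZNF511, ZNF853 and ZNF367 remained lower, at -1.84, -2.33 and -0.63, whereas ZNF330 (-0.13) and ZNF704 (-0.26) did not pass, and ZNF638 (0.25) and ZNF280D (0.36) changed sign and did not pass. Of the genes that had risen, ZNF664 remained at 1.55 and ZNF219 at 0.64, while ZNF469 went to 0.05 and ZNF837 to -0.29, neither passing.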

How the data were processed

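RNA from 3 shControl and 3 shGPER libraries, grouped by their titles, was made into libraries with a stranded kit for mRNA, per the labels' protocols. The deposited tables give TPM per gene as the authors computed them. Named in the submitters' processing notes are the tools RSEM, HISAT2 and fastp and the genome build hg38; use of strand in counting is not stated there. TPM keep no depth, so no count model, counting error or detection limit is given, and a shift in abundant transcripts moves all other values.

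The members and lists were chosen with earlier results of these data known. Log2(TPM + 1) was fitted with limma 3.58.1 (R 4.3.3; shGPER minus shControl, intensity trend, no covariate) on the 1651 of 2128 genes with at least 1 TPM in at least 3 libraries. Tests were two-sided, with Benjamini-Hochberg adjustment over all of these and a threshold of 0.05. The added 1 TPM makes fold changes of low genes too small. The fit was run on simulated data in which most genes were unchanged, whereas 98.4% of tested genes passed here. That run therefore does not show how the fit behaves on a table like this one. An exact permutation test of 3 against 3 libraries cannot go below p = 0.1, so none is given per gene.

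GC content, fingers and shared 31-base words came from GENCODE 29 transcripts (GRCh38), where all 48 members matched. The KRAB box came from the table's annotation terms in 24 members and from a pattern in the translated coding sequence alone in 5 (ZNF28, ZNF215, ZNF525, ZNF600 and ZNF836). That pattern was found in 22 of the 24, so a gene without it may still hold a divergent box. Start windows came from RefSeq (GRCh38.p14), the first listed per symbol.

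Named by rule were GPER1, the 10 largest rises and up to 10 largest falls among called members that reached a mean of 2 TPM in either group without overlap, the 4 of highest mean, those tested and not called, and the 4 of largest change whose call turned on the GC trend (ZNF469, ZNF205, ZNF837 and ZNF330). No member shared more than 29.7% of its 15-residue protein words with another. The remaining members are given to account for each. Alternatives were other pseudocounts, filters, scalings and variance priors, the replicate block, GC trend removal (spline, 3 degrees of freedom) and leaving out each library.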

Additional observations from a re-analysis of the deposited data

How the results depend on the processing

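The main counts were 25 members higher and 7 lower of 33 tested, with a median log2 fold change of 1.04. Without a filter 40 of 48 members were higher (28 KRAB, 13 off chromosome 19), as were 1128 of all 2128 genes, and the median was 0.80. With a filter of 5 TPM, which tests fewer genes, 14 of 19 members were higher (11 on chromosome 19 and 3 off it, or 9 KRAB and 5 not). The median was then 1.17, and 438 of 1117 tested genes were higher in place of 789 of 1651. The summed difference, over 19 members in place of 48, was 104.1 TPM in place of 134.3. The median was 1.32 and 1.13 with pseudocounts of 0.1 and 0.5, 1.19 with median centring, which moves the median of all genes by 0.15, and 0.88 with quantile normalization, where ZNF813 was at -0.14. With the GC trend removed, 3 members were lower, and 512 of 1626 tested genes were higher and 506 lower, in place of 789 and 836 of 1651. ZNF205 (-0.16), ZNF280D (0.36), ZNF638 (0.25) and ZNF837 (-0.29) then changed sign, with the same values under the replicate block. That fit with the replicate block gave 3 members lower, 3 higher off chromosome 19, 5 higher with no KRAB box found, and 493 and 498 tested genes higher and lower. The cause of these shifts was not tested.

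Same-numbered libraries did not deviate together (r = 0.03, -0.09 and 0.01), and the replicate block alone gave 25 members higher and 7 lower. Leaving out each library gave 25 to 26 higher, 7 lower and medians from 0.97 to 1.08. Leaving out members that share words or overlap another gene, chosen after seeing the data, left 10 higher and 3 lower, with a median of 1.07. This leaves out 15 of the 18 tested KRAB members, among them all 12 tested in the run, so it says little about the KRAB class. With the GC trend also removed, the 13 kept had a median of 0.27, with 7 higher and 2 lower. Leaving out the 4 members whose direction the filter fixed left 22 higher and 6 lower. Depth is unknown, so the precision of levels near or under 1 TPM is unknown too.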
